A study of Mus musculus with 6 samples.

Results

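The members are the ligand and receptor genes of the 4 classical axon guidance systems, namely the semaphorins with their plexin and neuropilin receptors, the ephrins with the Eph receptors, the Slits with the Robo receptors, and the netrins with Dcc and the Unc5 receptors. The rule took every protein-coding gene of these families in the GENCODE annotation of mm10, which gave 69 of 21951 genes: 20 semaphorins, 11 plexins and neuropilins, 8 ephrins, 14 Eph receptors, 7 Slits and Robos, and 9 netrins and netrin receptors. ATAC-seq, where a transposase (Tn5) inserts adapters into open DNA, was run on nuclei of the primary visual cortex (V1) taken at postnatal day 21 (P21). There were 3 libraries of GR-con and 3 of GR-KO. Mice of both conditions carried the floxed glucocorticoid receptor gene (*GR* fl/fl) and received, between P0 and P1, an AAV2/5 vector in which the astrocyte promoter GfaABC1D drives a nuclear-envelope-anchored EGFP (EGFP-KASH) together with active Cre in GR-KO or with ΔCre, the inactive form, in GR-con. V1 tissue of 3 to 4 mice was pooled for each library and 50000 DRAQ5+/GFP+ events were sorted, so a library also holds any transduced nucleus that was not an astrocyte or had kept the gene. Accessible sites were 401 bp wide, centred on peak summits and kept where at least 2 libraries had a peak, and 1784 of the 160877 sites lay in a member gene or within 50 kb of one. Of these, 1729 belonged to 1 member gene and 55 were shared by neighbouring members, 46 of them by 2 genes and 9 by 3.

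Axon guidance molecules tell growing axons where to go. Ligands that are secreted (class 3 semaphorins, Slits, netrins) or held on membranes (ephrins, most other semaphorins) bind receptors on the growth cone, whose signals reach the cytoskeleton and attract or repel the axon. Astrocytes express several of these ligands and receptors too, and ephrin and Eph signalling, semaphorins and Slits are known from contacts between astrocytes, synapses and migrating cells. GR, encoded by *Nr3c1*, is a hormone-activated transcription factor that binds DNA as a dimer at an inverted repeat whose arms lie 3 bases apart.

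The lists held 179462 to 198929 peaks a library, of which 1958 to 2182 had their summit in or near a member gene. That is 1.10% ± 0.00446 (SD, n = 3) of all GR-con peaks, and for GR-KO 1.09% ± 0.00893 (SD, n = 3). No library stood apart in this share, which ran from 1.08 to 1.11%. The lists give no read counts, so sequencing depth is unknown and no interval for counting error can be given. At *Nr3c1*, the deleted gene, the site of smallest p among the 17 in the gene lies in an intron, and its fold over background was 17.4, 17.4 and 14.3 in GR-con 1, 2 and 3, against 6.68, 4.73 and 6.36 in the GR-KO libraries. The number of peaks in or within 50 kb of the gene was 27, 28 and 28 in GR-con and 31, 28 and 30 in GR-KO, so it was not lower. A promoter peak was present for 6 of 8 astrocyte markers in every library (*Slc1a2*, *Slc1a3*, *Gfap*, *Sox9*, *Gja1* and *Aldoc*) and absent at the annotated start of *Aqp4* and *Aldh1l1*. It was present for 5 to 6 of 8 neuronal markers (none at *Gad1*), 2 to 3 of 7 oligodendrocyte lineage markers (none at *Mog*, *Mobp*, *Mag* and *Pdgfra*), 2 of 6 microglial markers (none at *Cx3cr1*, *Csf1r*, *Aif1* and *C1qa*) and 2 to 3 of 5 endothelial markers (none at *Pecam1* and *Tek*). Summed over the neuronal list, 105 to 109 of every 100000 peaks lay in or near these genes in GR-con and 115 to 116 in GR-KO, and for the astrocyte list 168 to 181 and 183 to 187. The endothelial list had 43.2 to 44.4 in GR-con and 38.4 to 41.9 in GR-KO. The other lists overlapped between conditions, at 75.4 to 80.9 and 73.9 to 79.1 for the oligodendrocyte lineage and 62.3 to 68.5 and 64.1 to 68.5 for microglia. The part of other cells in the results below was not tested.

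The sequences below are 201 bases around the centre of 8 axon guidance sites that the results turn on. They comprise the 4 sites called by rank of fold and 4 called by rank of −log10 p, the latter picked after their motif matches were seen. They are on the plus strand of the GRCm38 (mm10) reference, 5′ to 3′. Capitals mark matches on either strand, with overlapping copies of a motif capitalised once, to the palindromic glucocorticoid response element GNACANNNTGTNC, to its arm AGAACA, to TTGGCA, which is one arm of the nuclear factor I (NFI) motif, and to ACTGTA, a 6-mer that an earlier look at these libraries found at sites higher in GR-KO. The last 3 of these motifs were chosen after the data were seen.
Epha3 (chr16:63615526-63615726): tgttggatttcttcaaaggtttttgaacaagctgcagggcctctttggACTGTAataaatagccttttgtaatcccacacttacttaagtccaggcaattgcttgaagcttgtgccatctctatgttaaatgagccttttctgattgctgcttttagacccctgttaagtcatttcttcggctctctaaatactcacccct
Epha6 (chr16:60102214-60102414): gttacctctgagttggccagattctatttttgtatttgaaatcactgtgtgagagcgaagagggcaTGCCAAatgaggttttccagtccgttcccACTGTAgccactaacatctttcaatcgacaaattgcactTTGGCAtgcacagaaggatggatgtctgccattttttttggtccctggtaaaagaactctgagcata
Robo2 (chr16:73959748-73959948): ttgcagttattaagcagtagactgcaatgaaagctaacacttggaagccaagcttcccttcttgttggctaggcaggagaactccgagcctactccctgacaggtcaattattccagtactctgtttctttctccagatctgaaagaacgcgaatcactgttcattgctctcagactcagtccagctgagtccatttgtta
Ntn4 (chr10:93768409-93768609): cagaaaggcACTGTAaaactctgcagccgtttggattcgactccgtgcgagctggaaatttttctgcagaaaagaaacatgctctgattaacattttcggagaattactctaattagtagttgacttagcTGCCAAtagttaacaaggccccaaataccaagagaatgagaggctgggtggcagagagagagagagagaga
Ntn1 (chr11:68330609-68330809): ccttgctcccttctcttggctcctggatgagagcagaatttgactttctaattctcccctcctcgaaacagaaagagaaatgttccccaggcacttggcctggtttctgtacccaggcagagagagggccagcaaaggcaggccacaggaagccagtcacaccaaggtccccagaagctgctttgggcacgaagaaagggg
Unc5a (chr13:54912976-54913176): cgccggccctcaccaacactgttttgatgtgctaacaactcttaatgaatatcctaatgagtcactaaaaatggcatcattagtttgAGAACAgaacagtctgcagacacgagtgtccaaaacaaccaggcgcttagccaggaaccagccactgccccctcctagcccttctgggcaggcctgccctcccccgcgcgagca
Slit3 (chr11:35639454-35639654): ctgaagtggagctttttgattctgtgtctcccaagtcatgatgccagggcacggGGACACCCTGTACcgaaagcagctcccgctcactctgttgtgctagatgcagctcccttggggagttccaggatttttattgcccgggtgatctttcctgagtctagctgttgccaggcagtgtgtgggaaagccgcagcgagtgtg
Sema6b (chr17:56108692-56108892): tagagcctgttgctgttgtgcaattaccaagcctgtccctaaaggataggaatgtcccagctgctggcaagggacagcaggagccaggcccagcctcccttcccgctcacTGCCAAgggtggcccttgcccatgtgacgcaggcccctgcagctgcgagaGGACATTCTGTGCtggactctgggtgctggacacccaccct

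The first question was whether accessible sites at these genes changed when astrocytes lost GR. Across the 1784 sites few were called changed. Ranked by fold enrichment of the strongest peak, 1 site, in *Ntn1*, was lower in GR-KO and 3, in *Epha3*, *Epha6* and *Robo2*, were higher (limma on normal scores of the ranks, adjusted p under 0.05 over all sites). In the whole set 204 sites (0.127%) were lower and 98 (0.0609%) higher, so 4 of 1784 sites (0.224%) stand beside 0.188% of all sites in either direction. The median score difference, GR-KO minus GR-con, was 0.0222 for the axon guidance sites and 0.0165 for all sites. In bulk ATAC-seq, fewer nuclei with an open site and a less open site in every nucleus cannot be told apart. At an unadjusted p under 0.05 there were 194 axon guidance sites (10.9%), against 12.1% of all sites. All 4 calls were lost without the variance trend (adjusted p 0.0546 to 0.106) and with the replicate number as a block (adjusted p 0.196 to 0.202), and that of *Epha6* also when peaks had to cover over 200 bp of a site (adjusted p = 0.0588). They were lost too when any 1 of the 6 libraries was left out, when adjusted p was 0.111 to 0.198 for these sites, and with each library left out no more than 3 sites of the whole set were called.

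Ranked by −log10 p of the peak instead, a value that grows with depth as well as with fold, GR-KO had 12 lower and 24 higher axon guidance sites, 0.672% and 1.34% of 1786 sites. Over all sites 1350 (0.839%) were lower and 1229 (0.764%) higher by this ranking. Every GR-KO score lay below every GR-con score, by rank of fold, at 122 axon guidance sites (6.84%, against 7.57% of all sites). Every GR-KO score lay above every GR-con score at 230 (12.9%, against 11.6% of all sites). All 4 sites called by fold were called by −log10 p in the same direction.

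**Figure D1:**
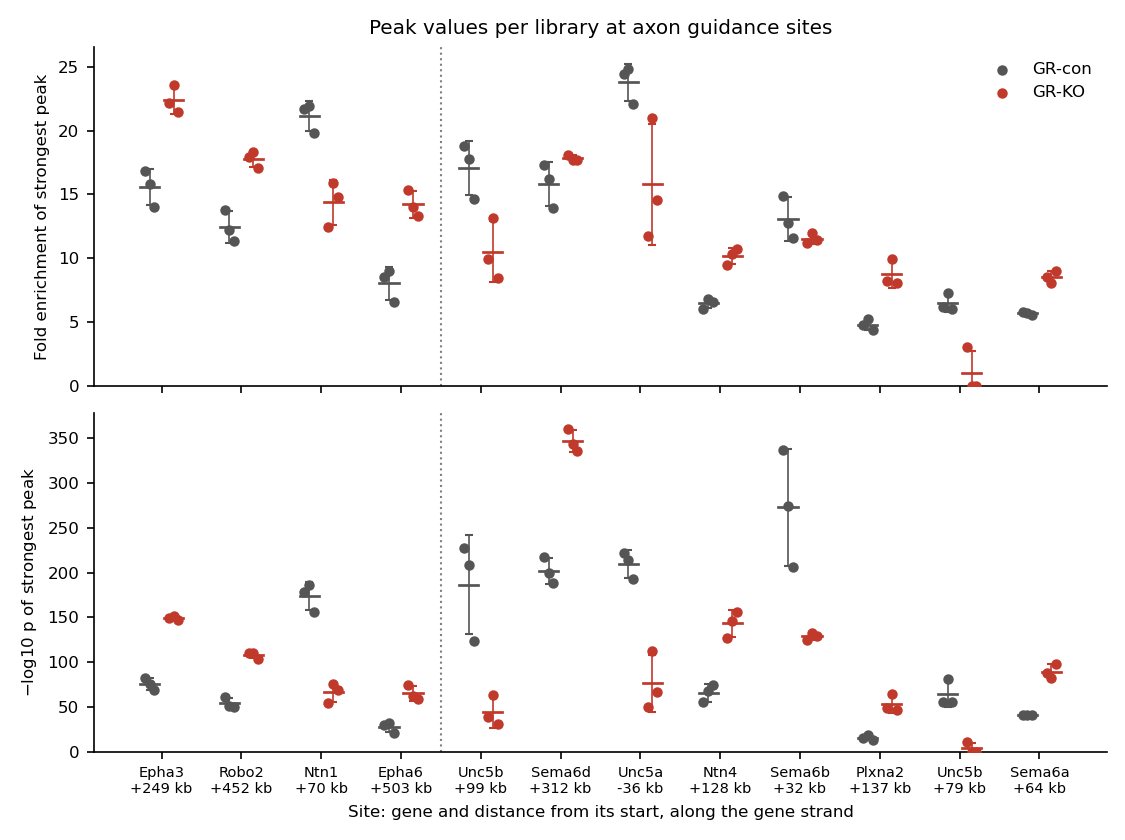
Fold enrichment over local background (top) and −log10 p (bottom) of the strongest peak in each library at the 4 sites called by rank of fold (left of the dotted line) and the 8 further sites of smallest p by rank of −log10 p (right), named by gene and distance from its start; 0 means no peak, points are libraries, lines are means and bars SD (n = 3). At *Epha3*, *Robo2* and *Epha6* all GR-KO points lie above all GR-con points, and at *Ntn1* all lie below.

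Among the Eph receptors, receptor tyrosine kinases that bind membrane-held ephrins, 2 of 329 sites were called by fold. Both were higher in GR-KO, and they make 0.608%, against 0.188% of all sites. By rank of −log10 p, 1 was lower and 7 were higher (0.304% and 2.13%, against 0.839% and 0.764% of all sites). The *Epha3* site, chr16:63615426-63615826, lies in an intron, 249 kb downstream of the gene start. Its fold over background was 16.8, 15.8 and 14.03 in GR-con 1, 2 and 3 and 22.2, 23.5 and 21.4 in GR-KO 1, 2 and 3. The groups did not overlap, and the peak moved from percentile 89.3 ± 1.04 to 96.9 ± 0.738 of its list (SD, n = 3). The difference in score was 0.66 (standard error 0.08, adjusted p = 0.0352), and 0.60 to 0.71 without 1 library (adjusted p 0.111 to 0.197). No other site of *Epha3* was called among its 12.

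The *Epha6* site, chr16:60102114-60102514, is intronic too, 503 kb downstream of the start of this long gene. Its fold was 8.50, 9.03 and 6.59 in GR-con 1, 2 and 3 and 15.3, 14.01 and 13.3 in GR-KO 1, 2 and 3, with no overlap. The difference in score was 0.58 (standard error 0.08, adjusted p = 0.0462) and 0.53 to 0.64 without 1 library (adjusted p 0.141 to 0.198). Both sites hold 1 ACTGTA, and the *Epha6* site also holds 2 NFI arms, as printed above. The lower Eph receptor site of smallest p by fold was chr4:141267754-141268154, outside genes and 33.3 kb upstream of *Epha2*, with fold values of 17.5, 15.9 and 15.6 in GR-con and 11.6, 13.1 and 11.4 in GR-KO. It was not called (score difference −0.35, standard error 0.07, adjusted p = 0.0959). The one lower by −log10 p, named after its values were seen, lies in an intron of *Ephb1* at chr9:102002145-102002545, with fold values of 12.2, 14.1 and 7.57 in GR-con and 4.33, 4.16 and 5.61 in GR-KO (−0.69, standard error 0.14, adjusted p = 0.0141). Among the higher ones, 2 lay in introns of *Ephb1* as well, at chr9:102193369-102193769 and chr9:102192945-102193345 (adjusted p = 0.0376 and 0.0439). These 2 sites nearly adjoin, and each is counted among the 7.

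Ephrins, the membrane-held ligands of these receptors, had 142 sites and none was called by rank of fold, against 0.188% of all sites. By −log10 p 0 were lower and 1 was higher (0.704%), against 0.839% lower and 0.764% higher of all sites. The higher site of smallest p, chr11:69605791-69606191, lies within 50 kb of *Efnb3* but only 49 bp from the start of *Atp1b2*, a sodium pump subunit gene. Its fold was 8.04, 8.39 and 7.91 in GR-con 1, 2 and 3 and 10.3, 10.5 and 10.9 in GR-KO 1, 2 and 3. Its score difference was 0.26 (standard error 0.07, adjusted p = 0.164), and 0.24 (standard error 0.06, adjusted p = 0.0463) by rank of −log10 p. The lower one, in an intron of *Efna5* at chr17:62783139-62783539, had weak peaks with fold values of 2.83, 2.63 and 2.70 in GR-con 1, 2 and 3. It had no peak in any GR-KO library. As it was kept through its GR-con peaks alone, its direction was fixed and no test of it is given.

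The Slits, secreted ligands, and their Robo receptors had 175 sites. By −log10 p 1 was lower and 1 higher (0.571% each, against 0.839% and 0.764% of all sites). By fold 1 site was called (0.571%, against 0.188% of all sites). It lies in an intron of *Robo2*, chr16:73959648-73960048, 452 kb downstream of the gene start. The fold was 13.8, 12.2 and 11.3 in GR-con 1, 2 and 3 and 17.96, 18.3 and 17.1 in GR-KO 1, 2 and 3, with no overlap. The difference in score was 0.47 (standard error 0.07, adjusted p = 0.0462), and 0.45 to 0.52 without 1 library (adjusted p 0.144 to 0.197). The printed bases hold none of the 4 motifs.

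Of the ligands, *Slit3* had a site in its intron at chr11:35639354-35639754, 518 kb downstream of its start, with fold values of 9.74, 9.33 and 7.26 in GR-con 1, 2 and 3 and 3.07, 4.73 and 4.30 in GR-KO 1, 2 and 3. GR-KO values all lay below GR-con values. The site was not called by fold (score difference −0.70, standard error 0.14, adjusted p = 0.102) and was lower by rank of −log10 p (−0.77, standard error 0.15, adjusted p = 0.0123). It carries a full response element, GGACACCCTGTAC. *Epha3*, *Epha6* and *Robo2* are all on chromosome 16, which holds 6 member genes, 127 of the axon guidance sites and 3.53% of all sites. Over the whole set, 5 of the 98 higher and 8 of the 204 lower sites were on this chromosome.

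**Figure D2:**
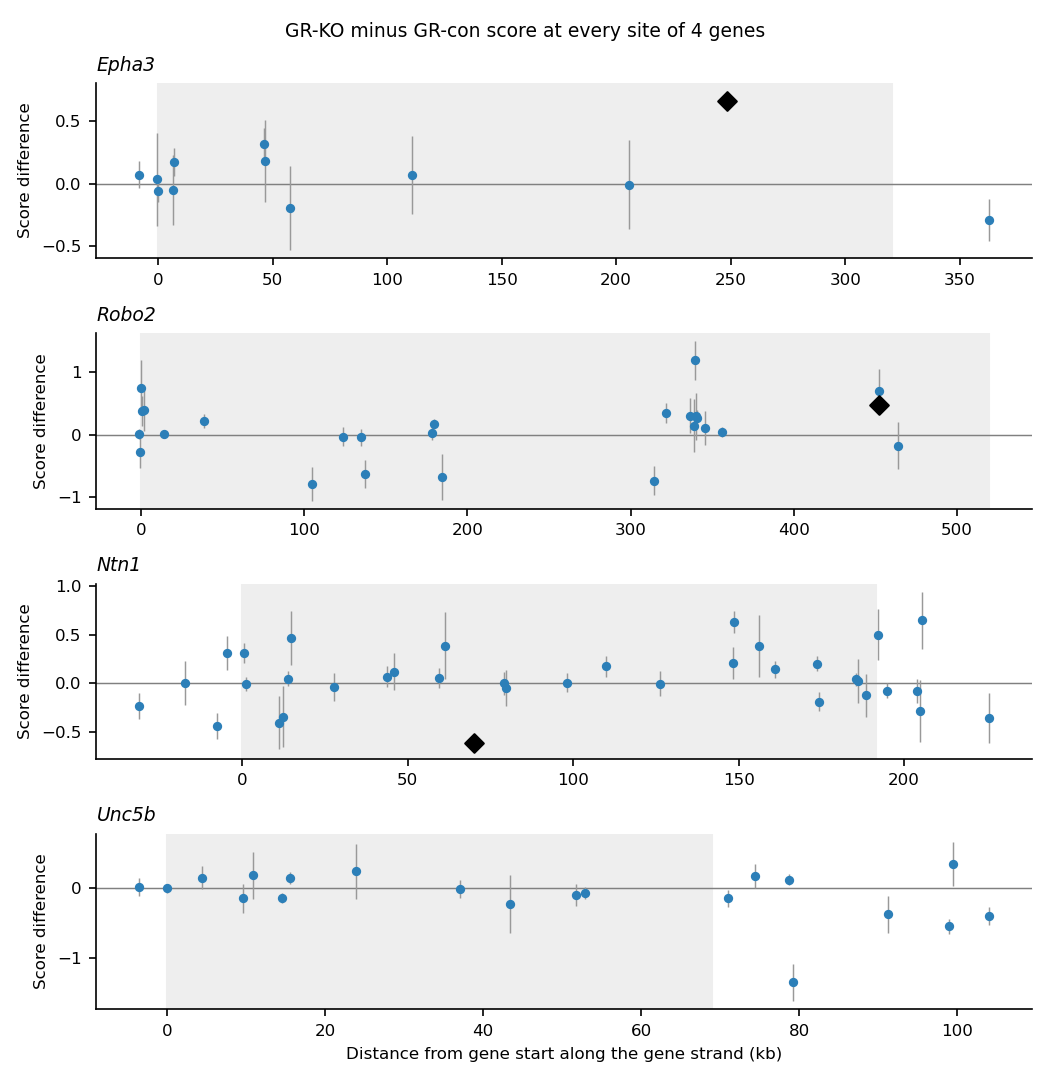
Score difference (GR-KO minus GR-con, with its standard error) at every site in or within 50 kb of *Epha3*, *Robo2*, *Ntn1* and *Unc5b*, against distance from the gene start along the gene strand in kb; grey marks the gene body and black diamonds the called sites. *Epha3*, *Robo2* and *Ntn1* each have 1 called site among sites on both sides of 0, and the 3 most negative *Unc5b* sites lie beyond the gene end.

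Netrins are secreted ligands of the receptor Dcc, which mostly attracts, and of the Unc5 receptors, which repel. They had 248 sites, with 5 lower and 3 higher by −log10 p (2.01% and 1.205%, against 0.839% and 0.764% of all sites). By fold 1 was called, the one lower axon guidance site (0.403%, against 0.188% of all sites). It lies in an intron of *Ntn1*, the netrin-1 gene, at chr11:68330509-68330909, 70.1 kb downstream of its start. Its fold was 21.7, 21.9 and 19.8 in GR-con 1, 2 and 3 and 12.5, 15.9 and 14.8 in GR-KO 1, 2 and 3, and its −log10 p was 178, 186 and 156 against 54.9, 75.2 and 68.4. The groups did not overlap on either value. The difference in score was −0.61 (standard error 0.09, adjusted p = 0.0462), and −0.67 to −0.53 without 1 library (adjusted p 0.121 to 0.198). By rank of −log10 p it was the axon guidance site of smallest p (−0.51, standard error 0.06, adjusted p = 0.000154). No match to any of the 4 motifs falls in its printed bases.

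A second intronic site of *Ntn1*, chr11:68251897-68252297, 149 kb from the start, went the other way. Its fold was 6.61, 8.28 and 10.5 in GR-con 1, 2 and 3 and 15.3, 15.9 and 14.8 in GR-KO 1, 2 and 3. The site was higher by rank of −log10 p (score difference 0.51, standard error 0.09, adjusted p = 0.00678) and not called by fold (0.63, standard error 0.11, adjusted p = 0.0741). Near *Ntn4*, a netrin found in basement membranes, the site chr10:93768309-93768709 outside genes had fold values of 6.04, 6.82 and 6.58 in GR-con and 9.48, 10.3 and 10.7 in GR-KO. It was higher by −log10 p (0.47, standard error 0.07, adjusted p = 0.000599), not by fold (0.42, standard error 0.08, adjusted p = 0.0834), and holds 1 ACTGTA and 1 NFI arm. Close to it, the site chr10:93771854-93772254, named after its values were seen, was lower by −log10 p (−0.29, standard error 0.07, adjusted p = 0.0403), with fold values of 20.7, 19.7 and 18.02 in GR-con and 17.3, 14.5 and 14.4 in GR-KO, so *Ntn4* too had sites in both directions.

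Sites at the repulsive receptor genes *Unc5a* and *Unc5b* were lower by rank of −log10 p. The *Unc5a* site, chr13:54912876-54913276, is outside genes and 36.3 kb upstream of its start. Its fold was 24.4, 24.8 and 22.1 in GR-con 1, 2 and 3 and 11.7, 21.01 and 14.6 in GR-KO 1, 2 and 3, so GR-KO 2 came close to the GR-con values. Its score difference by −log10 p was −0.59 (standard error 0.08, adjusted p = 0.000416) and by fold −0.77 (standard error 0.18, adjusted p = 0.135), and the printed bases hold a GR arm. At *Unc5b* the sites lie past the gene end, in introns of the neighbour *Slc29a3*, a nucleoside transporter gene. The site chr10:60732357-60732757 had fold values of 18.7, 17.8 and 14.7 in GR-con and 9.93, 13.1 and 8.45 in GR-KO, without overlap (by −log10 p, −0.75, standard error 0.09, adjusted p = 0.0002; by fold, −0.55, standard error 0.11, adjusted p = 0.0996). The other, chr10:60752176-60752576, is 418 bp from the *Slc29a3* start, and its fold was 6.19, 7.29 and 5.99 in GR-con 1, 2 and 3, 3.01 in GR-KO 1 and without a peak in GR-KO 2 and 3 (by −log10 p, −1.60, standard error 0.26, adjusted p = 0.00256; by fold, −1.35, standard error 0.27, adjusted p = 0.0948). The direction by fold of this last site turned from −1.35 when a wider peak could count, to 0.15 with a summit allowed within 400 bp and to 0.13 with any peak covering over 200 bp. The *Unc5c* intronic site chr3:141621578-141621978 was higher by −log10 p (0.32, standard error 0.06, adjusted p = 0.0107), but its fold overlapped between groups, at 15.04, 12.4 and 12.1 in GR-con and 17.2, 14.2 and 14.6 in GR-KO.

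Semaphorins, the largest ligand family, had 546 sites, none called by fold, and 1 lower and 7 higher by −log10 p (0.183% and 1.28%, against 0.839% and 0.764% of all sites). The higher site of smallest p by fold, chr3:88417149-88417549, is 43.8 kb downstream of the *Sema4a* start and inside another gene, *Slc25a44*. Its fold was 2.93, 2.22 and 2.70 in GR-con 1, 2 and 3 and 5.89, 8.26 and 6.04 in GR-KO 1, 2 and 3, without overlap. Its score difference was 1.09 by fold (standard error 0.17, adjusted p = 0.0564) and 0.99 by −log10 p (standard error 0.19, adjusted p = 0.00955). A second *Sema4a* site in an intron, 2.05 kb from the start, had fold values of 2.52, 3.26 and 2.76 in GR-KO and no peak in GR-con. It is counted among the 7, although it was kept through its GR-KO peaks alone, and it was not called by fold (0.86, standard error 0.23, adjusted p = 0.178).

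At *Sema6d*, a transmembrane semaphorin, an intronic site at chr2:124401974-124402374 was higher by −log10 p, which was 217, 199 and 189 in GR-con 1, 2 and 3 and 360, 343 and 336 in GR-KO 1, 2 and 3 (0.44, standard error 0.06, adjusted p = 0.000306). Its fold moved little, from 17.3, 16.2 and 13.9 to 18.1, 17.7 and 17.7 (score difference 0.19, standard error 0.07, adjusted p = 0.34). The lower site, chr17:56108592-56108992, is 31.6 kb downstream of the *Sema6b* start and in an intron of *Plin4*, a lipid droplet gene. Its −log10 p was 337, 275 and 207 in GR-con and 124, 133 and 129 in GR-KO (−0.47, standard error 0.07, adjusted p = 0.00173). Its fold was 14.9, 12.7 and 11.6 in GR-con and 11.2, 11.9 and 11.4 in GR-KO, which overlap (score difference −0.11, standard error 0.07, adjusted p = 0.596). Further intronic sites of *Sema6a*, *Sema3f*, a secreted repellent, and *Sema4d* were higher by −log10 p with fold ranges of 5.58 to 5.76, 11.1 to 12.2 and 10.3 to 12.2 in GR-con and of 8.03 to 9.02, 13.1 to 13.98 and 12.6 to 15.2 in GR-KO. The lower site of smallest p by fold, 69.0 kb from the *Sema7a* start in *Cyp11a1*, had fold values of 10.4, 11.1 and 8.96 in GR-con and 5.78, 5.49 and 7.67 in GR-KO (adjusted p = 0.161).

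Plexins and neuropilins, the receptors and co-receptors of semaphorins, had 344 sites, none called by fold. By −log10 p 4 were lower and 5 higher (1.16% and 1.45%, against 0.839% and 0.764% of all sites). Of the 4 lower, the site chr15:89128074-89128474 near *Plxnb2* was named after its values were seen. Its fold was 14.9, 14.1 and 13.6 in GR-con 1, 2 and 3 and 12.8 in GR-KO 2, without a peak in GR-KO 1 and 3. The higher site of smallest p by fold, chr1:62860832-62861232, lies outside genes near the end of *Nrp2*. Its fold was 8.38, 8.66 and 7.92 in GR-con 1, 2 and 3 and 12.4, 13.0 and 12.9 in GR-KO 1, 2 and 3, with no overlap. The difference in score was 0.42 (standard error 0.06, adjusted p = 0.0527), and 0.144 to 0.198 was the range of adjusted p without 1 library. By rank of −log10 p the difference was 0.23 (standard error 0.07, adjusted p = 0.152). The site passed the threshold when a peak was required in 3 libraries instead of 2 (adjusted p = 0.0475) or had to cover over 200 bp (adjusted p = 0.0409). An intronic *Plxna2* site, chr1:194754578-194754978, had fold values of 4.73, 5.21 and 4.36 in GR-con and 8.23, 9.97 and 8.06 in GR-KO (by −log10 p, 0.65, standard error 0.11, adjusted p = 0.00253; by fold, adjusted p = 0.0661).

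*Plxnc1*, the receptor of the semaphorin Sema7a, had sites in both directions. The intronic site chr10:94794914-94795314 had fold values of 3.99, 5.48 and 4.29 in GR-con and 7.82, 8.74 and 8.79 in GR-KO (by −log10 p, 0.61, standard error 0.12, adjusted p = 0.0101). The site chr10:94958300-94958700, 13.7 kb upstream of its start, had fold values of 21.1, 19.0 and 16.6 in GR-con and 11.2, 10.2 and 14.03 in GR-KO (by −log10 p, −0.32, standard error 0.08, adjusted p = 0.0394). Neither passed by fold (adjusted p = 0.0824 and 0.0817). At each of these sites the groups did not overlap on fold.

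**Figure D3:**
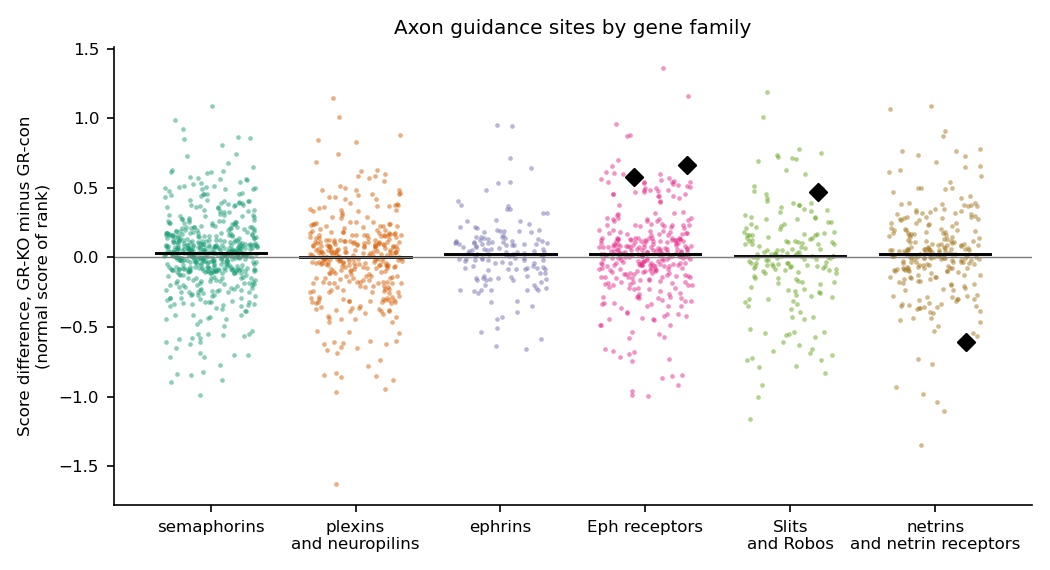
Score difference (GR-KO minus GR-con, normal score of the rank of fold) of every axon guidance site by gene family; each point is a site, black lines are family medians and black diamonds the called sites. The medians run from 0.0037 for plexins and neuropilins to 0.03 for semaphorins, and the 4 called sites lie in 3 families.

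Peaks limited to GR-con, in all 3 of its libraries and in none of GR-KO, were found at 17 axon guidance sites (0.953%, against 1.15% of all sites), and the reverse at 9 (0.504%, against 0.618%). By family the sites with GR-con peaks alone numbered 6 for plexins and neuropilins (1.74%), 4 for Slits and Robos (2.29%) and 3 for semaphorins (0.549%). Ephrins had 2 (1.41%), and Eph receptors (0.304%) and netrins with their receptors (0.403%) 1 each. With GR-KO peaks alone there were 2 each for semaphorins (0.366%), Eph receptors (0.608%) and netrins with their receptors (0.806%). Plexins and neuropilins (0.291%), ephrins (0.704%) and Slits and Robos (0.571%) had 1 each. These were weak peaks. The 3 with the highest rank in GR-con lay in an intron of *Robo1* (fold 3.59, 3.39 and 3.55), outside genes 42.8 kb upstream of *Ephb2* (3.78, 3.01 and 3.72) and in an intron of *Unc5d* (4.35, 3.01 and 3.21). The 3 with the highest rank in GR-KO lay 59.9 kb downstream of the *Ephb3* start (5.24, 3.79 and 3.93), in an intron of *Ephb1* (3.00, 3.57 and 4.30) and in an intron of *Plxnc1* (5.24, 2.65 and 3.37). As these 6 sites were picked for this pattern and kept through the condition with the peaks, their values are a description and no test of them is given. Leaving out 1 library raised the counts to between 31 and 43 and between 15 and 28, since 5 libraries rather than 6 then had to meet the condition.

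The palindromic response element was rare at these genes. It was found within 100 bp of the centre at 9 of 1784 sites (0.504%), against 0.634% of all sites. The GR arm, which can overlap it, was at 15.5% (17.3% of all sites), the NFI arm at 20.2% (20.7%) and ACTGTA at 7.51% (7.82%). The 9 sites with the element lie in or within 50 kb of *Slit3* and *Sema6b*, with 3 each, and *Plxna2*, *Plxna4* and *Sema6a*, with 1 each. The 3 *Sema6b* sites and the *Plxna2* site lie outside those genes. All 9 had a score difference below 0, from −0.97 to −0.11, whereas 44.7% of all axon guidance sites and 79.1% of all 1020 sites with the element were below 0. For 4 of the 9 the peaks were all in GR-con libraries, so their direction was fixed, and the other 5 of 5 were below 0 as well, beside 74.6% of the 795 such sites in the whole set. None was called by fold (adjusted p 0.102 to 0.602). The elements at *Slit3*, *Sema6b*, *Plxna2* and *Plxna4* read as follows, in capitals throughout.
Slit3 (site chr11:35416625-35417025): GCACATCTTGTCC
Slit3 (site chr11:35639354-35639754): GGACACCCTGTAC
Slit3 (site chr11:35660710-35661110): GGACAGAATGTTC
Sema6b (site chr17:56092763-56093163): GCACAGGCTGTAC
Sema6b (site chr17:56099215-56099615): GCACAGTGTGTTC
Sema6b (site chr17:56108592-56108992): GGACATTCTGTGC
Plxna2 (site chr1:194836739-194837139): GTACAGCTTGTTC
Plxna4 (site chr6:32167841-32168241): GCACAGACTGTCC

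Of the 12 axon guidance sites lower by −log10 p, 3 held the full element (25.0%, and 17.3% of all sites lower by that ranking), at *Sema6b*, *Slit3* and *Nrp1*, and 5 held the GR arm (41.7%, and 42.7% of all sites lower by that ranking). The *Nrp1* match falls outside the window of the same site when ranked by fold, where its centre is another summit. Of the 24 higher sites none held the full element, 10 held ACTGTA (41.7%, and 30.8% of all higher sites) and 10 the NFI arm (41.7%, and 33.9% of all higher sites). No lower site held ACTGTA, against 5.63% of all lower sites. The arms and ACTGTA were chosen after these data were seen, ACTGTA from sites higher in GR-KO, so their shares are a description. Matches are letters in a window and do not show binding.

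The number of peaks per gene gave a second measure, which does not depend on single sites. None of the 68 genes tested was called with fewer or more peaks in GR-KO (limma on log2 of peaks per 100000 listed, plus 0.5, adjusted over 17190 genes). Of all genes, 5 or 0.0291% were called with fewer and 1 or 0.00582% with more. At an unadjusted p under 0.05 there were 6 of 68 member genes (8.82%) and 8.38% of all genes. The peak numbers of both conditions, not scaled to list length, did not overlap at 7 of the 68 (10.3%, against 8.17% of all genes). Of these 7 genes only *Nrp1* had more peaks in GR-KO. The median log2 difference was −0.0025 for members and 0.01 for all genes. *Sema3c*, with 3 to 5 peaks, fell under the minimum mean of 5 peaks. *Epha5* and *Ephb3*, chosen after their values were seen, had the smallest p. *Epha5* had 25, 22 and 24 peaks in GR-con 1, 2 and 3 and 17, 15 and 19 in GR-KO 1, 2 and 3 (log2 difference −0.41, standard error 0.10, adjusted p = 0.187). *Ephb3* had 15, 14 and 21 in GR-con and 23, 21 and 21 in GR-KO (0.43, standard error 0.12, adjusted p = 0.205).

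**Figure D4:**
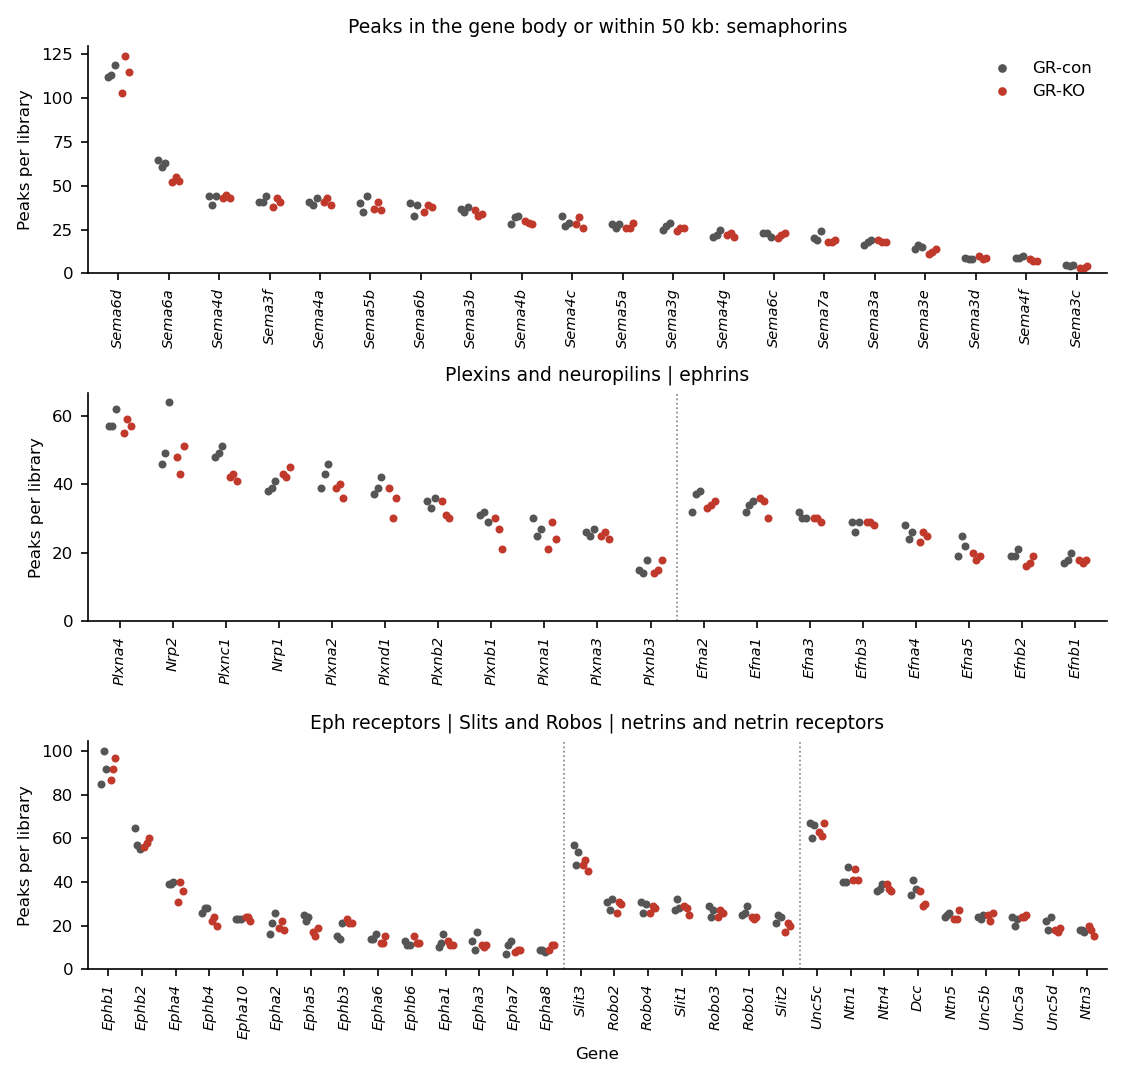
Number of peaks in the gene body or within 50 kb for each of the 69 genes, ordered within family by mean; each point is a library (3 GR-con, 3 GR-KO). *Sema6d* and *Ephb1* lead with 103 to 124 and 85 to 100 peaks. The points of both conditions overlap in all but 7 genes (10.3% of the 68 tested, against 8.17% of all genes).

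The genes differed widely in how many peaks they held. *Sema6d* had the most, 112, 113 and 119 in GR-con 1, 2 and 3 and 103, 124 and 115 in GR-KO 1, 2 and 3, and *Sema3c* the fewest. Among plexins and neuropilins *Plxna4* had the most (55 to 62) and *Plxnb3* the fewest (14 to 18), and among ephrins *Efna2* (32 to 38) and *Efnb1* (17 to 20). Eph receptors ran from *Ephb1* (85 to 100) to *Epha7* (7 to 13), Slits and Robos from *Slit3* (45 to 57) to *Slit2* (17 to 25), and netrins and their receptors from *Unc5c* (60 to 67) to *Ntn3* (15 to 20). Long genes offer more room for peaks, so these counts are not levels per length. *Epha3* had 13, 9 and 17 peaks in GR-con 1, 2 and 3 and 11, 10 and 11 in GR-KO 1, 2 and 3 (log2 difference −0.17, standard error 0.15, adjusted p = 0.803). *Robo1*, which with *Epha3* is known from axons of neurons, had 25, 26 and 29 in GR-con and 24, 23 and 24 in GR-KO (−0.11, standard error 0.09, adjusted p = 0.765).

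Promoters of these genes showed no called change. A site within 500 bp of the annotated start was found for 56 of the 69 genes, and at 50 of them in all 6 libraries. The other 13 include *Ntn1*, *Ntn4*, *Epha6* and *Robo1*, whose outermost annotated start had none. The median percentile of fold was 77.9 in GR-con and 79.3 in GR-KO over the 56 genes. By family the GR-con median was 83.8 for Eph receptors, 78.6 for ephrins, 77.7 for semaphorins, 76.1 for netrins and their receptors, 71.5 for plexins and neuropilins and 47.3 for the 3 Slit and Robo genes with a promoter site. *Sema6c* stood highest, at percentile 98.4 ± 0.206 in GR-con and 98.1 ± 0.884 in GR-KO (SD, n = 3). *Nrp1* stood lowest in GR-con, at 0.857 ± 0.646, and had 3.60 ± 3.07 in GR-KO. Lower than it in GR-KO were *Epha8* (2.66 ± 4.60) and *Slit3* (2.91 ± 5.04), which lacked a peak in some libraries. No promoter site was called (lowest adjusted p = 0.301, at *Epha5*, with percentile 76.9 ± 2.13 in GR-con and 82.7 ± 2.80 in GR-KO). At *Robo2* the promoter percentile was 71.3 and 70.5 in GR-con 1 and 3, with no peak in GR-con 2, and 72.4, 77.2 and 72.4 in GR-KO 1, 2 and 3 (adjusted p = 0.513).

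**Figure D5:**
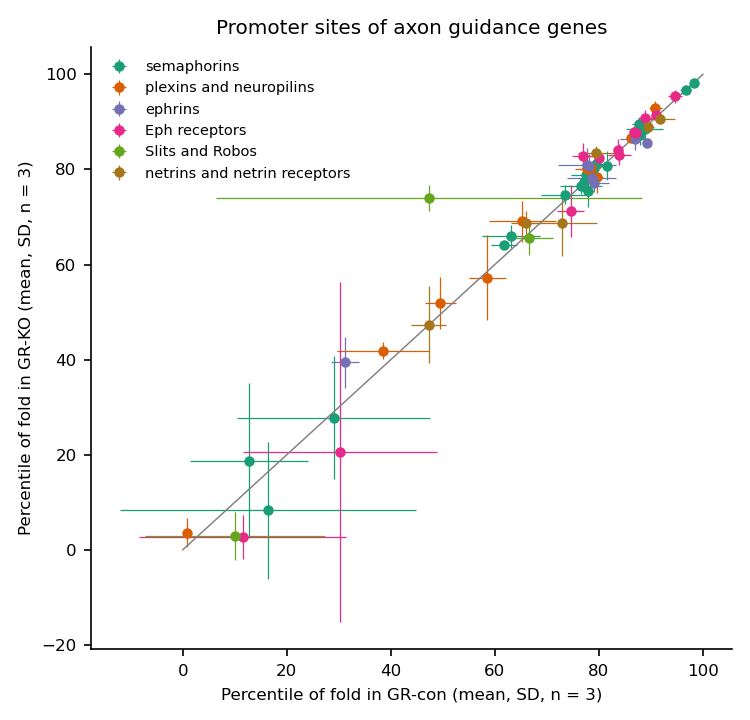
Percentile of the fold of the promoter site within its list, GR-KO against GR-con, for the 56 genes with such a site; points are means over 3 libraries, bars SD (n = 3), and the line marks equal values. Most points lie close to the line, and the wide GR-con bar of *Robo2* comes with a missing peak in GR-con 2.

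By position, 198 of the 1784 axon guidance sites (11.1%) were within 500 bp of a gene start, 189 (10.6%) in exons, 1095 (61.4%) in introns and 302 (16.9%) outside genes. The corresponding shares of all sites were 10.1%, 8.14%, 51.9% and 29.9%. The window rule favours sites inside genes. A peak in all 6 libraries was present at 61.8% of axon guidance sites and 62.0% of all sites. The genes were compared, lastly, with 45 other genes of the pathway (co-receptors, other ligands and transducers inside the cell), which had 1676 sites and shared none with the members. None of these was called by fold, with 11 lower and 6 higher by −log10 p (0.657% and 0.358%, against 0.839% and 0.764% of all sites). The lower ones lay at *Farp2*, *Farp1*, *Srgap2* (2 sites), *Srgap3*, *Nell2*, *Kalrn*, *Dscam*, *Ablim1*, *Rgma* and *Mical2*, and the higher at *Nrcam*, *Trio*, *Ptk2* (2 sites), *Kalrn* and *Fes*. The smallest p belonged to *Ptk2*, the focal adhesion kinase, with a higher site (0.54, standard error 0.08, adjusted p = 0.000545), and to *Farp2*, which acts downstream of plexins, with a lower one (−0.46, standard error 0.07, adjusted p = 0.000792). No pathway gene of the 45 was called by peak number, and 4 had an unadjusted p under 0.05, a measure that 8.38% of all genes passed.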

How the data were processed

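The 6 ATAC-seq libraries (V1, P21) comprised 3 per condition. Reads went through the ENCODE pipeline on mm10, after which the authors deposited 1 peak list per library, called on that library alone with peak p at most 0.01. Each deposited list gives a capped score, a fold enrichment (a ratio over the local background of the library), the −log10 of the p-value and of the q-value, and the summit position. A wide peak may carry several summits, each on its own line (25.5 to 30.2% of lines). No counts are given, so depth is unknown.

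Summits were widened by 200 bp to each side and taken in order of rank, leaving out overlaps. A site counted as open in a library if a summit lay within 200 bp of its centre, and 19.0 to 21.5% of summits fell at no kept site. Ranks of fold, with sites lacking a peak tied lowest, became normal scores for limma 3.58.1 (R 4.3.3) (variance trend, no block, two-sided, Benjamini-Hochberg over all 160877 sites, adjusted p under 0.05), and the limma step was tested on simulated data. Peaks per gene were compared as log2(peaks per 100000 listed + 0.5). At a single site, 3 libraries against 3 cannot reach an exact permutation p under 0.1, so the p-values rest on spread shared over sites. Motifs were searched within 100 bp with pysam 0.24.0 in Python 3.11.15.

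The members and lists were chosen with earlier results of these data known. Named sites were those called by either ranking (at most 20 each), the lower and the higher site of smallest p per family, and for each condition the 3 top-ranked sites found in it alone. Named genes were those called, those with the most and fewest peaks per family, *Epha3* and *Robo1*. Alternatives were −log10 p, lists cut at a q-value of 0.01 or to equal length, other peak assignments, at least 3 libraries, a replicate block, no variance trend, a window of 10 kb, the gene body alone, autosomes, a pseudocount of 5, no filter, and each library left out.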

Additional observations from a re-analysis of the deposited data

How the results depend on the processing

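The 1 lower and 3 higher axon guidance sites became 12 and 24 with ranks of −log10 p, 7 and 5 without the variance trend (adjusted p 0.0546 to 0.106 for the 4 sites called in the report, while the calls gained include sites with peaks in 1 condition alone, where the test restates how they were kept), and 4 lower with peaks that cover over 200 bp, where 4 sites had peaks in GR-KO alone. Leaving out 1 library gave 0 to 1 lower and 0 higher sites, 31 to 43 sites with peaks in GR-con alone and 15 to 28 in GR-KO alone. With a replicate block there were 0 lower and 0 higher sites (0 in the whole set too, by limma, with 198 axon guidance sites, or 11.1%, at an unadjusted p under 0.05, beside 11.4% of all sites). The correlations of same-numbered libraries' deviations were 0.0295, −0.0048 and 0.0250, and those of the other pairs ran from −0.0323 to 0.0075. Values this small cannot decide whether the replicate numbers pair the libraries. For peak number the block called 23 genes with fewer and 19 with more peaks over all genes, against 5 and 1 without it, and 0 members (lowest member adjusted p 0.0880, against 0.187). With a q-value limit, equal lists, summits within 400 bp, at least 3 libraries, autosomes, 10 kb or the gene body alone, 1 lower and 3 to 4 higher sites were found. The only named site whose direction turned was the *Unc5b* site near the *Slc29a3* start, at 0.132 with covering peaks and 0.145 with summits within 400 bp. The count of member genes with changed peak number was 0 under all 14 alternatives, with 5 to 11 at an unadjusted p under 0.05. Depth is unknown, and with 3 libraries a condition a site called here can lose its call with any single library.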
